A study of Homo sapiens with 2 samples.

Results

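The 10 genes described here encode the GATA1, TAL1 and LMO2 transcription factor complex of red cell precursors and its close partners. They were taken by gene symbol from the 62702 rows of the deposited count table: GATA1, GATA2, TAL1, LMO2, LDB1, LYL1, ZFPM1, NFE2, GFI1B and RUNX1. Each symbol matched 1 row. RNA was measured in K562, a leukemia cell line of human origin that makes several red cell proteins, in a series on distal genes that share an enhancer. Both libraries carry the labels WT, K562 and E50_dCas9-KRAB. The cells make dCas9-KRAB, a Cas9 without nuclease activity that is joined to a repressor domain and silences the promoter a guide RNA points to. The labels do not say what E50 is. The control library had a control guide (sgRNA_Control), and the other had a guide against SMC1A (sgRNA_SMC1A), which encodes a core subunit of the cohesin ring. Guides came by lentivirus with a blue fluorescent marker, cells were under 1 µg/ml puromycin from day 2 to day 6, and cells bright for the marker were sorted. Each guide had 1 library, so no test between conditions was possible, and the labels do not give the number of cultures.

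GATA1 is the main transcription factor of red cell and megakaryocyte precursors. In the complex, GATA1 and the TAL1 dimer bind neighbouring sites on DNA, LMO2 bridges them without touching DNA, and LDB1 joins such complexes with one another, which can hold an enhancer near a promoter. Cohesin also joins distant sites, by forming loops. GATA2 is the earlier acting relative of GATA1, and LYL1 is a relative of TAL1. FOG1 (encoded by ZFPM1), GFI1B, RUNX1 and NFE2 act with the complex at blood cell genes.

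The control library held 18349209 estimated counts and the SMC1A library 16864207. Levels are given in CPM, counts per 1000000 of a library size scaled with TMM factors, a scaling that assumes most genes to be alike. Differences are log2 ratios of CPM, SMC1A guide over control guide, with an exact 95% interval that covers counting error alone, given as a range in brackets. Where 2 values of a gene stand together, the control library comes first. The guide's own target, SMC1A, went from 460.4 CPM in the control library to 16.3 CPM, or 3.56% of that level. Among the 11321 genes with at least 100 counts over both libraries, called measured genes below, the median log2 ratio was -0.05, the 5th percentile -0.75 and the 95th percentile 1.01. Scaling by library totals moved that median by 0.13, and ratios are given on the TMM scale.

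Within the factor genes the bridging factor LMO2 stood lowest. The control library held 1673 LMO2 counts, or 95.4 CPM, and the SMC1A library 408, or 23.1 CPM. This is 4.11-fold lower, with 24.3% left (interval 21.7 to 27.0). Its log2 ratio of -2.04 (interval -2.20 to -1.89) was undercut by 33 of the measured genes, 0.291% of them. LDB1, whose product binds LMO2 and pairs with itself, had 3762 and 2265 counts, or 214.4 and 128.4 CPM. It was 1.67-fold lower (log2 ratio -0.74, -0.82 to -0.66). Both genes of this adaptor were lower in the SMC1A library, LMO2 by more than LDB1.

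Among the factor genes, the basic helix-loop-helix genes TAL1 and LYL1, which encode DNA-binding partners of LMO2, did not follow it. TAL1 had 3309 counts, or 188.6 CPM, in the control library and 3989 counts, or 226.2 CPM, in the SMC1A library. It was the 1 factor gene with a higher level in the SMC1A library, 1.20-fold (log2 ratio 0.26, 0.20 to 0.33). LYL1, a relative of TAL1 with a similar DNA-binding part, had 1659 and 1620 counts, or 94.6 and 91.9 CPM. No difference in LYL1 was detectable at this depth, since its log2 ratio of -0.04 had an interval of -0.14 to 0.06. Its sign was the opposite with library totals as sizes (0.09) and after the expression trend of all genes was taken out (0.07).

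The GATA factor genes were both lower by less than 2-fold. GATA1 had 2880 and 1969 counts, or 164.1 and 111.6 CPM, a log2 ratio of -0.56 (-0.64 to -0.47), which leaves 68.0% of the control level. GATA2, which GATA1 replaces at shared sites as red cells mature, had 2741 and 2149 counts, or 156.2 and 121.8 CPM, a log2 ratio of -0.36 (-0.44 to -0.28). The intervals of these genes do not overlap, and GATA1 was the lower. GATA2-AS1, an RNA on the opposite strand whose span overlaps GATA2, had 349 and 369 counts (log2 ratio 0.07). The library kit keeps the strand, but whether counting used it is not given in the sources used here. ZFPM1 encodes FOG1, a zinc finger cofactor that binds GATA1 and not DNA. It had 945 and 686 counts, or 53.9 and 38.9 CPM, a log2 ratio of -0.47 (-0.61 to -0.33), close to that of GATA1.

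Of the remaining partners, RUNX1 and GFI1B were past 2-fold and NFE2 was not. RUNX1, a factor of stem cells, platelets and leukemia, had 1213 counts in the control library, or 69.1 CPM, and 470 in the SMC1A library, or 26.6 CPM. This is 2.59-fold lower (log2 ratio -1.37, -1.53 to -1.22). GFI1B, a repressor needed for red cells and platelets, had 1288 and 570 counts, or 73.4 and 32.3 CPM. It was 2.27-fold lower (log2 ratio -1.18, -1.33 to -1.04). NFE2, which with a small MAF protein binds the globin enhancers, had 2923 and 1768 counts, or 166.6 and 100.2 CPM, 1.66-fold lower (log2 ratio -0.73, -0.82 to -0.65). The plot of levels shows each gene in both libraries.

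**Figure D1:**
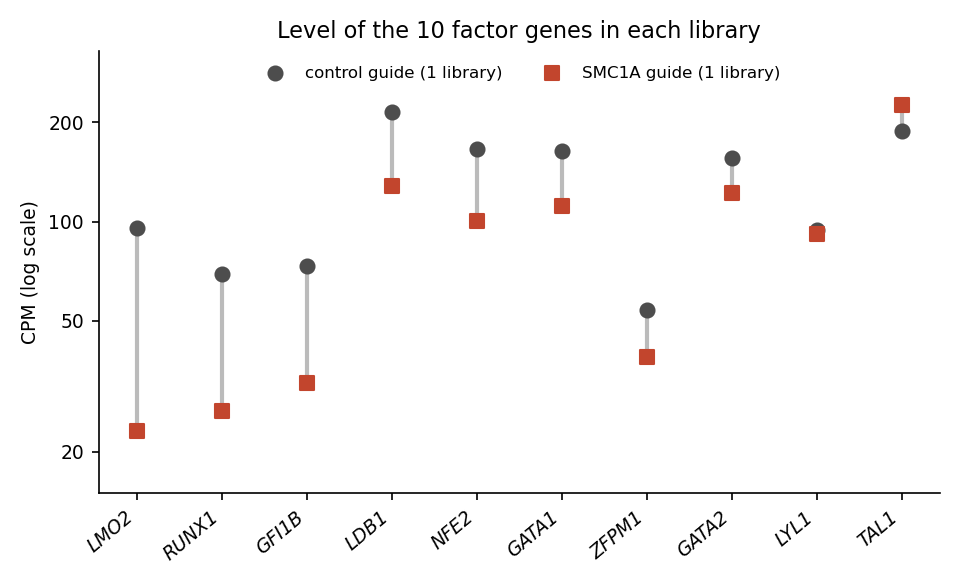
Level of each factor gene in CPM on a log axis, with 1 circle for the control guide library and 1 square for the SMC1A guide library, ordered by log2 ratio. LMO2 spans the widest gap (95.4 to 23.1 CPM), the symbols of LYL1 almost coincide, and TAL1 alone has its square above its circle.

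All 10 genes passed the filter of 100 counts, with 1631 to 7298 counts each over both libraries. Past the 2-fold limit on the lower side were 3 of the 10, against 2.32% of all measured genes. On the higher side there were 0 of the 10, against 5.11%. With a 1.5-fold limit LDB1 and NFE2 joined them, which makes 5 lower, against 9.06%. For LMO2, RUNX1 and GFI1B the interval as a whole was past 2-fold on the TMM scale, against 1.26% of measured genes. The GFI1B interval ended at -1.04. Library totals moved its ratio from -1.18 to -1.05, by which the interval reaches inside 2-fold. The interval lay below 0 for 8 genes, against 38.7% of measured genes, above 0 for TAL1, against 29.4%, and across 0 for LYL1. The median log2 ratio of the 10 was -0.64, against -0.05 for measured genes. Scaling by library totals gave -0.51, and removal of the trend with expression level gave -0.49. The genes are mostly well expressed. By mean CPM 5 lay in the top 20% of measured genes, where 1.63% were at least 2-fold lower. The next 20% (1.41% lower) held 3, LMO2 and GFI1B among them, and the 20% after that (1.5% lower) held 2, among them RUNX1.

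**Figure D2:**
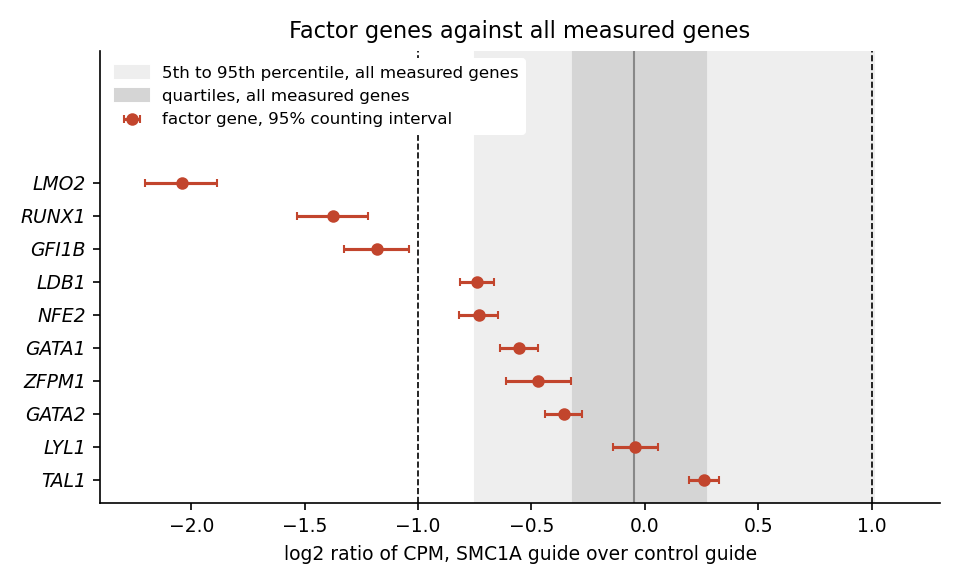
Log2 ratio of CPM, SMC1A guide over control guide, for each factor gene with its 95% counting interval, over bands for the quartiles (dark) and the 5th to 95th percentiles (light) of measured genes, whose median is the grey line. Dashed lines mark 2-fold, and LMO2, RUNX1 and GFI1B lie wholly to the left of the lower one.

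**Figure D3:**
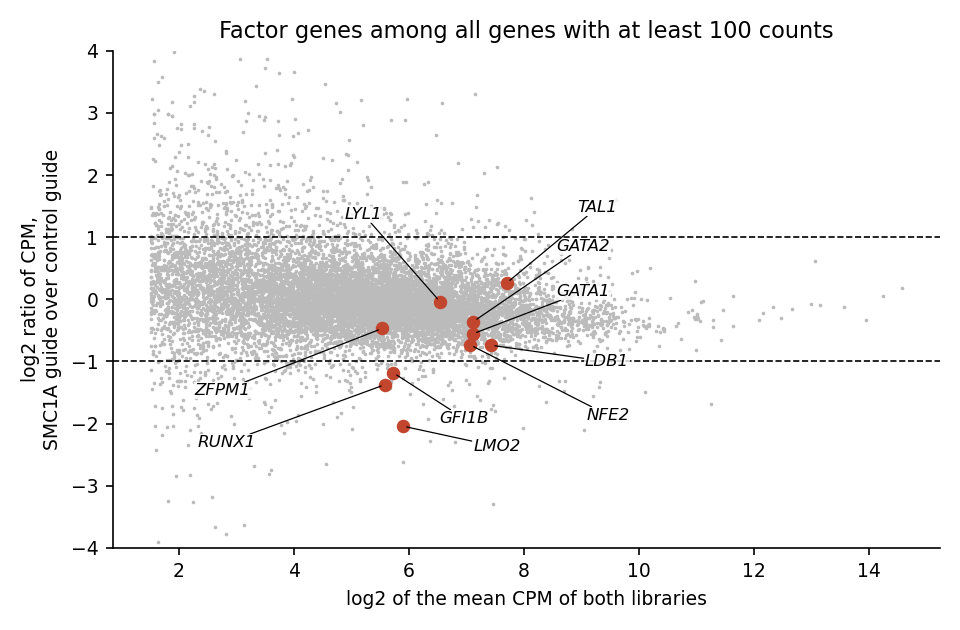
Log2 ratio against the log2 of the mean CPM of both libraries, with measured genes in grey and factor genes in red. 18 measured genes with a log2 ratio beyond 4 in either direction are not drawn. The 3 genes past 2-fold lie at mid to high expression, and LMO2 sits under the main cloud.

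Levels of different genes were compared per kilobase of annotated exon, counting each exonic base of a gene once. GATA1 led with 109.4 CPM per kb in the control library, followed by LDB1 (76.9), NFE2 (67.5), GATA2 (35.0), TAL1 (33.1), LMO2 (30.7), LYL1 (30.3), GFI1B (12.0), ZFPM1 (8.82) and RUNX1 (4.44). LMO2 and LYL1 did not differ beyond counting error there (ratio 1.01, interval 0.94 to 1.08). In the SMC1A library GATA1 (74.4 CPM per kb), LDB1 (46.0) and NFE2 (40.6) still led, and TAL1 at 39.7 did not differ from NFE2 beyond counting error (ratio 1.02, interval 0.97 to 1.08). LMO2, at 7.44 CPM per kb, had moved from beside TAL1 and LYL1 to beside ZFPM1 at 6.37. RUNX1 was last in both libraries, at 1.71 CPM per kb with the SMC1A guide. The order depends on the length used. With the longest transcript of each gene instead, LYL1 was the fourth in the control library (61.1 CPM per kb), and RUNX1 (9.50) no longer differed from ZFPM1 (10.0) beyond counting error there. GATA1 was first and RUNX1 last with either length in both libraries.

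Ratios of counts within a library need no scaling between libraries. They are not adjusted for gene length, so only their change between the libraries is read here. Per TAL1 count there were 0.506 LMO2 counts in the control library and 0.102 in the SMC1A library, a 4.94-fold lower ratio (interval 4.39 to 5.57). Per LDB1 count there were 0.445 and 0.180 LMO2 counts (2.47-fold lower, interval 2.19 to 2.79), and per GATA1 count 0.581 and 0.207 (2.80-fold lower, interval 2.48 to 3.18). LMO2 was thus lower against each of these 3 partners. GATA2 per GATA1 stood at 0.952 and 1.09, a 1.15-fold higher ratio (interval 1.06 to 1.24). LYL1 per TAL1 stood at 0.501 and 0.406, a 1.23-fold lower ratio (interval 1.14 to 1.34). ZFPM1 per GATA1 stood at 0.328 and 0.348, and the change of 1.06-fold had an interval of 0.946 to 1.19, so none was detectable. LMO4, a LIM-only relative of LMO2, had 0.180 and 0.895 counts per LMO2 count, a 4.97-fold higher ratio (interval 4.10 to 6.02). Most of this change is the lower LMO2, since LMO4 itself had 301 and 365 counts (log2 ratio 0.27, 0.05 to 0.50). RUNX1 had 0.731 and 0.294 counts per count of CBFB, its stabilising partner (2.49-fold lower, interval 2.19 to 2.83). NFE2 had 4.47 and 3.47 counts per count of its small MAF partner MAFK (1.29-fold lower, interval 1.13 to 1.47). GFI1, the relative of GFI1B, had 9 and 12 counts, against 1288 and 570 for GFI1B, so GFI1B held nearly all counts of this pair in both libraries.

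Promoter sequence was compared because GFI1B and RUNX1 were lower together while TAL1 and LYL1 were not. RefSeq windows (GRCh38.p14) were found for 8 of the 10 genes, LMO2 and NFE2 not among them, and the 250 bases before each start were searched on both strands for the GATA words, which are AGATAA and AGATAG, with TGATAA and also TGATAG. Capitals mark those words, or their reverse complements, in the windows shown, each 5′ to 3′ on the strand of its gene. The GFI1B window is the downstream of 2, at chr9:132978444-132978693 (plus strand). The RUNX1 window is at chr21:34888700-34888949 (minus strand), the TAL1 window is the upstream of 2, at chr1:47232336-47232585 (minus strand), and the LYL1 window is at chr19:13102859-13103108 (minus strand).
GFI1B: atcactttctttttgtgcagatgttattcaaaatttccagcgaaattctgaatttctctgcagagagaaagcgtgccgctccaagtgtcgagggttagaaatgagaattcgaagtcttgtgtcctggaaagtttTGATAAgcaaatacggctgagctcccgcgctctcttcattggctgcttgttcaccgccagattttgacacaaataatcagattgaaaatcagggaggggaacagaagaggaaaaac
RUNX1: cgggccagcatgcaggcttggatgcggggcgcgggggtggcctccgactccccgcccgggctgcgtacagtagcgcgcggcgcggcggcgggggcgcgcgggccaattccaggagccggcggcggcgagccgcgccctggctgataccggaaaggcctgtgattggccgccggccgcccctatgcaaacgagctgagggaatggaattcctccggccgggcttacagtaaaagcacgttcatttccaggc
TAL1: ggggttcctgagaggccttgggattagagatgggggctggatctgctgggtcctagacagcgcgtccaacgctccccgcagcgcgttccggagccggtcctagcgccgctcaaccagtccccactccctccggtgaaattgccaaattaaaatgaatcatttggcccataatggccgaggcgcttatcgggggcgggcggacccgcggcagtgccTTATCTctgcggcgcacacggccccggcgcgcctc
LYL1: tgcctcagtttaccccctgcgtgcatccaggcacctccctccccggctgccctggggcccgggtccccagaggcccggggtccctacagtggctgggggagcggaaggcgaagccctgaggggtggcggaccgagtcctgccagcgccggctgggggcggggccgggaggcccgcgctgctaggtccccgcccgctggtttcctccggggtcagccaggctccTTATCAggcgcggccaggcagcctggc
A GATA word stood in the windows of GFI1B, TAL1 and LYL1 and in none of the 8 other windows, RUNX1 included. It starts 116 bases before the GFI1B start, 35 before the TAL1 start and 27 before the LYL1 start. Of all 35116 windows of this length in the table, 22.3% hold at least 1 such word. In the windows searched, the word was thus present at GFI1B, past 2-fold, and at the 2 genes with the highest ratios. It was absent from the 1 window of RUNX1, also past 2-fold. That window lies inside the annotated RUNX1 span, and no other RUNX1 start was searched. LMO2, the lowest factor gene, had no window, and a link between the word and the ratios was not tested. The RUNX word TGTGGT, held by 11.0% of windows, occurred 3 times in the downstream TAL1 window. The NFE2 word TGANTCA, held by 6.57%, occurred once, in the upstream TAL1 window. The E-box CANNTG, the kind of site TAL1 dimers bind, is held by 61.8% of windows. It occurred 3 times in 1 GATA2 window, once in the upstream TAL1 window, and in the GFI1B windows once (upstream) and 2 times (downstream). The table of counts is per gene and does not separate starts.

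Genes whose products bind LMO2, LDB1 or TAL1, or resemble them, were listed beside the factor genes. Of 16 listed, 11 were measured, 0 were past 2-fold on the lower side (2.32% of all measured genes) and 1 on the higher (5.11%), with a median log2 ratio of 0.10. The exception was SSBP2, which encodes a protein that shields LDB1 from degradation. It had 229 and 687 counts, or 13.1 and 39.0 CPM, and was 2.98-fold higher (log2 ratio 1.57, 1.36 to 1.80). Its relative SSBP3 was at 147.2 and 179.7 CPM (log2 ratio 0.29). The E protein genes, partners of TAL1 on DNA, differed among themselves, with TCF3 lowest of the list (259.0 and 172.3 CPM, log2 ratio -0.59) and TCF4 second highest (0.51). KLF1, the erythroid factor that works beside GATA1, was at -0.32. LMO1, LMO3 and LDB2 had 0 counts in both libraries, which allows up to 3 counts each (0.171 and 0.170 CPM).

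In the other partner lists, most members lay within 2-fold, as did most measured genes (2.32% at least 2-fold lower and 5.11% higher). Of the GATA and FOG relatives, 3 of 5 were measured. GATA6, a factor of heart and gut, had 142 and 34 counts (log2 ratio -2.04, -2.65 to -1.52), while ZFPM2 was at 0.35 and GATA5 at 0.69. Among the 8 small MAF, NFE2-like and BACH genes the median was -0.25, and BACH2 was at least 2-fold lower (20.4 and 9.92 CPM, log2 ratio -1.04, interval -1.31 to -0.78, or -0.91 by library totals, which is within 2-fold). NFE2L3 was at -0.69, NFE2L1 at 0.33 and BACH1, a repressor that competes for the NFE2 site, at 0.41. CBFB was at -0.06, or 0.07 by library totals, and RUNX2 and RUNX3 had 7 counts or fewer over both libraries. For the LSD1 and CoREST corepressor that GFI1B recruits, 0 of 8 measured genes were past 2-fold and the median was 0.13. RCOR1, its scaffold, was lowest at -0.65 and KDM1A, the demethylase LSD1, next at -0.39, while HMG20B was at 0.38 and PHF21A at 0.63. For the NuRD corepressor that FOG1 recruits, 0 of 11 were past 2-fold, from GATAD2A at -0.58 and MBD2 at -0.46 to CHD3 at 0.46 and MTA3 at 0.47. The NuRD median was -0.19, or 0.04 with the trend with expression level removed.

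Erythroid genes known to be activated with GATA1 did not shift in 1 direction. Of 28 listed, 26 were measured, 4 were past 2-fold on the higher side (5.11% of all measured genes) and 3 on the lower (2.32%), with a median log2 ratio of 0.17. Higher were RHAG, a blood group and ammonia channel gene (386.1 and 1020 CPM, log2 ratio 1.40), the membrane skeleton gene EPB42 (1.32), the blood group gene ERMAP (1.14) and the anion exchanger gene SLC4A1 (1.04). Lower were CITED2, a transcriptional coregulator gene (114.9 and 35.8 CPM, log2 ratio -1.68), AHSP, a chaperone gene for alpha-globin (95 and 33 counts, -1.5), and the survival gene BCL2L1 (200.4 and 94.2 CPM, -1.09). BCL2L1 was within 2-fold by library totals (-0.96) and with the trend removed (-0.94). Of 7 measured globin genes, 5 were at least 2-fold lower, HBA2 (-2.29), HBA1 (-1.76), HBG2 (-1.68), HBZ (-1.56) and HBG1 (-1.5). HBQ1 was at -0.88, while HBE1, the embryonic beta-like gene, was at 0.62. HBA1 is a near-identical copy of HBA2, as HBG1 is of HBG2, so the division of reads within each pair is uncertain.

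Of 10 progenitor genes known to be repressed with GATA1, 6 were measured, and 3 of those were at least 2-fold lower, against 2.32% of all measured genes. All 6 had ratios below 0, against 54.3% of measured genes, except HHEX under the alternatives given for it, and the median was -1.14. ERG, FLI1 and CD34 had 0 counts in both libraries and MEIS1 had 12 and 13. KIT, the stem cell factor receptor gene and a target of GATA2 and the LMO2 complex, had 201 and 15 counts, or 11.5 and 0.85 CPM, 12.7-fold lower (log2 ratio -3.67, -4.62 to -3.00). MYC was at -1.47 and MYB at -1.36, the lymphoid and progenitor factor gene IKZF1 at -0.92, SPI1, which encodes the myeloid factor PU.1, at -0.58 (143 and 96 counts), and HHEX at -0.07. HHEX was at 0.06 by library totals and at 0.05 with the trend removed. The plot of lists sets these values beside the factor genes.

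**Figure D4:**
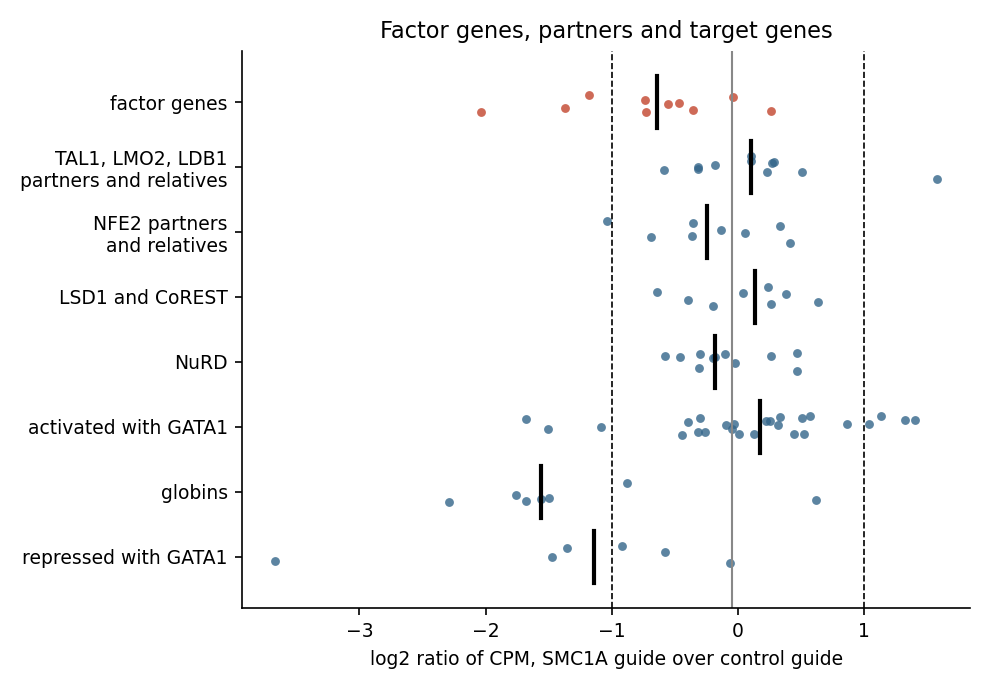
Log2 ratio of CPM, SMC1A guide over control guide, for each measured gene of the factor, partner and target lists (points, spread vertically for legibility), with the list median as a black bar and the median of all measured genes as a grey line. Dashed lines mark 2-fold. The medians of the factor genes (-0.64), globins (-1.56) and progenitor genes (-1.14) lie left of the grey line, and those of TAL1, LMO2 and LDB1 partners (0.10) and erythroid genes (0.17) right of it.

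Genes beside the factor genes were compared, since cohesin acts on stretches of chromosome. Coordinates are from GENCODE 29 (GRCh38). LMO2 (chromosome 11, 33858576 to 33892289) had 5 measured coding genes within 500 kb. Of these, 0 were at least 2-fold lower, against 2.32% of all measured genes. FBXO3, 84.0 kb away on the downstream side, was at 0.07 and CAPRIN1, 159.4 kb away on the upstream side, at -0.34. CD59, a complement inhibitor gene 122.1 kb downstream, went the other way from LMO2, with 171.2 CPM (3004 counts) and 391.6 CPM (6907 counts), a log2 ratio of 1.19 (1.13 to 1.26). GFI1B (chromosome 9, 132944000 to 132991687) overlaps TSC1 on the opposite strand, which was at 0.67 (732 and 1171 counts). Its nearest measured neighbours without overlap, GTF3C5 at 39.0 kb and GTF3C4 at 249.0 kb, were at -0.33 and -0.35. SPACA9 (29 and 21 counts) and AK8 (0 counts in both) lie nearer than GTF3C4 but had under 100 counts. Past 2-fold of its 15 were GBGT1 (-1.05, or -0.92 by library totals), 161.3 kb away, and CACFD1 (1.90, on 38 and 145 counts), 468.3 kb away. RUNX1 spans 34787801 to 36004667 on chromosome 21 in this annotation (1217 kb), and gaps are taken from the ends of this span. The RUNX1 promoter window shown above, at 34888700-34888949, lies inside it, so SETD4 is much farther from that start than its gap. SETD4, 29.9 kb beyond its upstream end, was at 0.01 and RCAN1, 172.7 kb beyond its downstream end, at -0.15. SMIM11, 379.9 kb downstream, was at -1.30 (332 and 135 counts). By these spans, the nearest measured gene on each side of these 3 factor genes was within 2-fold. So were most measured genes, with 2.32% at least 2-fold lower and 5.11% higher. CLIC6, nearer to RUNX1 than RCAN1, had 2 and 0 counts.

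**Figure D5:**
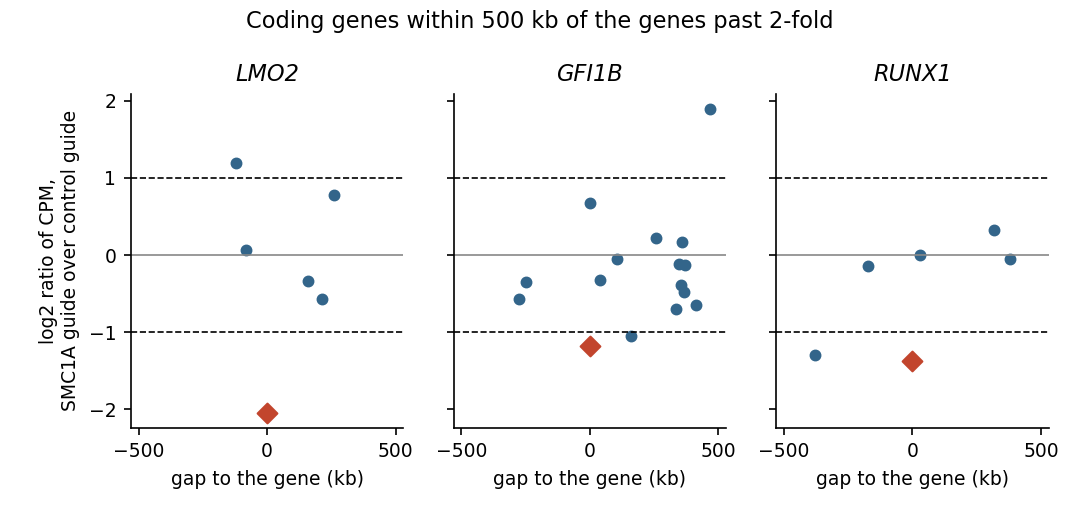
Log2 ratio of CPM, SMC1A guide over control guide, of measured coding genes within 500 kb of LMO2, GFI1B and RUNX1 (blue circles) against the gap to that gene in kilobases (negative toward lower coordinates, 0 for overlap), with the gene itself as a red diamond at 0. Dashed lines mark 2-fold. Each diamond lies below the lowest blue circle of its panel, by little for GFI1B (-1.18 against -1.05) and RUNX1 (-1.37 against -1.30). With the trend with expression level removed RUNX1 is at -1.30 and SMIM11, the lowest circle of that panel, at -1.34.

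Around the other 7 genes, the nearest measured coding gene on each side was likewise within 2-fold, as most measured genes were. The gaps ran up to 497.2 kb. Genes under 100 counts lay nearer in some cases, among them ZNF469, 12.6 kb from ZFPM1, with 0 and 18 counts, and PDZK1IP1, 25.2 kb from TAL1, with 0 and 9. HDAC6 and SUV39H1 on either side of GATA1 (chromosome X, 48786554 to 48794311) were at -0.02 (0.11 by library totals) and -0.36, while PIM2, 118.9 kb away, was at -1.38 (2597 and 1005 counts) and SYP at -1.72 (81 and 24 counts). RPN1 and EEFSEC on either side of GATA2 (chromosome 3, 128479427 to 128493185) were at 0.20 and 0.11. STIL, 17.9 kb from TAL1 (chromosome 1, 47216290 to 47232220), was at -0.03 (0.10 by library totals) and EFCAB14, 497.2 kb away on the other side, at 0.13. PPRC1 and HPS6 beside LDB1 (chromosome 10, 102107560 to 102120453) were at -0.62 and 0.18, and NFKB2, 273.7 kb away, at 1.05. NFIX and TRMT1 beside LYL1 (chromosome 19, 13099033 to 13103161) were at -0.33 and -0.30. ZC3H18, 33.4 kb from ZFPM1 (chromosome 16, 88453317 to 88537016), and BANP, 376.0 kb away on the other side, were both at -0.21. COPZ1 and HNRNPA1 beside NFE2 (chromosome 12, 54292111 to 54301121) were at -0.13 and -0.35. The homeobox genes HOXC12 (53 and 146 counts) and HOXC6 (34 and 92 counts), 333.2 and 261.3 kb away, were at 1.44 and 1.40. Over all 10 genes, 124 coding neighbours were measured, with 4 past 2-fold on the lower side (2.32% of all measured genes), 5 on the higher (5.11% of all measured genes), and a median log2 ratio of -0.09, against -0.05 for all measured genes.

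Markers of cell types that these factors govern were read in the same libraries, to check the label. All 9 erythroid markers were measured, 4 of them at least 2-fold lower (2.32% of all measured genes). These were HBG2, HBZ and HBG1, given above, and TFRC (16110 and 6114 counts, log2 ratio -1.41). ALAS2 (0.86) and EPOR (0.51) were the highest. Together the 9 markers summed to 7697 CPM in the control library and 3034 CPM in the SMC1A library, most of it globin RNA. HBE1 is not among these markers and had 6755 and 10348 CPM. With HBE1 included, all 9 globin genes of the earlier list summed to 14168 and 12720 CPM. Of 16 megakaryocyte markers 6 were measured, and 3 of those were at least 2-fold higher (5.11% of all measured genes, and 14.5% of the 20% with the lowest mean CPM), TUBB1 (1.90), GP6 (1.58) and ITGA2B (1.28). CD36 was at -0.57 and F2R at -0.54. All 16 summed to 97.3 and 132.6 CPM. PPBP, named after its counts were seen, had 0 and 23 counts, and PF4, GP9, GP1BA, VWF, SELP and TREML1 were at 0 counts in both libraries. Of 15 myeloid markers 4 were measured, from CD68 at 0.35 and LYZ at 0.42 to CYBB at 0.45 and CD33 at 0.74, all 15 summed to 64.7 and 92.8 CPM, and MPO and ELANE were at 0. Of 12 lymphoid markers CD3D (0.34) and CD3G (1.24) were measured, all 12 summed to 19.3 and 29.5 CPM, and MS4A1, CD2 and GNLY were at 0. The part of these differences in the levels of the factor genes was not tested. In RNA from many cells, fewer cells with a transcript and less of it per cell cannot be told apart.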

How the data were processed

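Poly(A) RNA, 1 µg per library, was read as 100-base pairs, and the authors deposited unscaled estimated counts for each gene. Per the submitters' processing notes, Salmon 1.10.1, STAR 2.7.10a and DESeq2 1.42.1 were used with build hg38. What each tool did, and which annotation was used, is not given in the sources used here. Values are whole numbers as deposited. Salmon divides reads between similar transcripts, so counts of near-identical genes depend on that division.

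Symbols came from a gene-name table, coordinates and lengths from GENCODE 29, which held 97.9% of measured genes, and promoter windows from RefSeq. TMM library sizes were computed with edgeR 4.0.16 (R 4.3.3), and log2 ratios of CPM with a prior count of 1. Intervals are exact (Clopper-Pearson for 2 counts, conditional for ratios within a library; scipy 1.17.1). They cover counting error only and not the spread between cultures. No molecular identifiers were read, so copies of the same molecule could not be told apart. Called means at least 2-fold among genes with at least 100 summed counts. No p-value is given, since each guide had 1 library. The calculation was tested on simulated counts that had counting error only, so that test does not cover the spread between cultures.

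The named genes were the 10 factors, SMC1A, the pair partners, in each list the 2 highest and 2 lowest and any gene past 2-fold, and for each factor the nearest measured coding gene on each side and any within 500 kb past 2-fold. SSBP3, KLF1, IKZF1 and genes under 100 counts were named after their values were seen. With 2 libraries, likeness of pattern could be given only as the number of genes with a lower ratio. The factor genes and the 13 lists, which share some genes, were chosen with earlier results of these data known. Also tried were library totals, the upper quartile, size factors of DESeq2 1.42.0 and TMM without mitochondrially encoded and globin genes, prior counts of 0.25 and 5, removal of the trend with expression level (lowess, statsmodels 0.14.6), filters of 20, 500 and 1 counts, a 1.5-fold limit, whole intervals past 2-fold, and the longest transcript as length.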

Additional observations from a re-analysis of the deposited data

How the results depend on the processing

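With 1 library per guide, the spread between replicates was not measured, and the intervals cover counting error alone. LMO2, RUNX1 and GFI1B were at least 2-fold lower and no factor gene was 2-fold higher under every scaling, prior count and filter tried. LMO2 ranged from -2.04 to -1.91, RUNX1 from -1.37 to -1.24 and GFI1B from -1.18 to -1.05, while TAL1 ranged from 0.26 to 0.44 and GATA1 from -0.56 to -0.41. With a 1.5-fold limit LDB1 and NFE2 were added, making 5 genes lower, against 1026 measured genes lower and 1376 higher. The median of the 10 genes was -0.51 by library totals and -0.49 with the trend with expression level removed. The count of all genes at least 2-fold lower and higher, 263 and 579, became 518 and 1361 under a filter of 20 counts, 140 and 199 under 500, 2714 and 3800 under 1, and 143 and 343 with whole intervals past 2-fold. Higher genes were 68.8% of those past 2-fold, against 79.7% by library totals. Among coding neighbours, 4 lower and 5 higher became 2 and 1 under 500 counts, 6 and 9 under 20, 13 and 28 under 1, 18 and 12 with the 1.5-fold limit, and 3 and 2 with whole intervals. No paired analysis was possible because each guide has 1 library.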
